A study of Mus musculus with 16 samples.

Results

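The genes described here are 10 parts of the HSP90 chaperone machinery: the chaperones Hsp90aa1 and Hsp90ab1, the co-chaperones Fkbp5, Fkbp4, Ptges3 and Stip1, and the HSP70 system of Hspa8, Hspa1b, Hsph1 and Dnajb1. They were chosen by symbol, with earlier results of these data known, from a table of 31274 features. All 10 were found there, and all 10 passed the filter of a mean of at least 1 FPKM (fragments per kilobase of transcript scaled to sequencing depth) that left 15408 features for testing. RNA was sequenced from whole uteri of ovariectomized mice, 6 h after oil or progesterone (P4) given 2 weeks after the surgery. Mice of the strain PgrcrePgrALsL/+ (PRA below) carry the driver Pgrcre and a Cre-activated transgene for progesterone receptor isoform A, and mice of PgrcrePgrBLsL/+ (PRB below) carry the same driver and a transgene for isoform B. The 4 groups are therefore PRA with oil, PRA with P4, PRB with oil and PRB with P4, each with 4 libraries labelled as biological replicates, 16 in all. Every mouse carried the driver and 1 of the transgenes, and a strain with neither was not analysed here, so each strain is compared with its own oil group and with the other strain. Pgrcre expresses Cre where the progesterone receptor gene is active, which in the uterus includes epithelium, stroma and muscle. The growth protocol has females kept with littermates until 8 weeks of age. The treatment field of the labels instead speaks of mated females and pregnancy day 4, a conflict that was not settled.

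HSP90 is an abundant ATP-dependent chaperone that holds steroid hormone receptors in a form able to bind hormone. HSP70, helped by J-domain proteins and by exchange factors of the HSP110 family, delivers the receptor to HSP90 through the bridging protein that Stip1 encodes. The co-chaperone p23, product of Ptges3, steadies the late complex, and the immunophilins encoded by Fkbp4 and Fkbp5 take the same place on HSP90. Fkbp5 is a known target of glucocorticoid, androgen and progesterone receptors, and its product lowers the hormone response of the glucocorticoid and progesterone receptors, whereas the product of Fkbp4 favours it. Mice without Fkbp4 are infertile because the uterus does not respond properly to progesterone.

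Across all 16 libraries total FPKM lay between 499748 and 595748, from 499748 to 528785 in the oil libraries and from 572846 to 595748 in the P4 libraries. The spacing of the lowest values implied 60.0 to 72.9 M fragments per library, after any scaling by the authors. Uterine, epithelial, gland, stromal and smooth muscle markers were all detected. The summed level of 4 stromal markers (Pdgfra, Dcn, Lum, Vim) was 809 to 952 FPKM in PRA with oil and 434 to 566 with P4, and 919 to 1018 in PRB with oil and 540 to 584 with P4; Dcn, Lum and Vim fell in both strains and Pdgfra was not called in either. The sum of 4 endothelial markers was 186 to 239 FPKM in PRA with oil, 114 to 142 in PRA with P4, 197 to 224 in PRB with oil and 162 to 172 in PRB with P4. Among them Cldn5 fell by 1.37 in PRA and 0.78 in PRB and Pecam1 by 0.34 in PRA, while Kdr and Cdh5 were called in neither strain and Pecam1 had 0.02 in PRB. The sum of 4 ovary and oviduct markers was 25.05 to 34.8 FPKM in the oil libraries of both strains and 11.1 to 15.4 in the P4 libraries. Of these Inha fell by 1.61 and 1.30, while Ovgp1 was called in neither strain (-0.08 in both) and Foxj1 fell in PRB (-1.09) with -0.64 in PRA (adjusted p = 0.0506). Of 3 skeletal muscle markers, Acta1 made up nearly all of a sum of 8.08 to 61.5 FPKM in PRA with oil, 77.0 to 144 with P4, 12.4 to 38.2 in PRB with oil and 44.5 to 73.1 with P4, and Myh4 was at or near 0. The part of these shifts in the results below was not tested, and in whole tissue fewer cells of a type and less RNA per cell cannot be told apart. The column names give strain, treatment and replicate number and state no run or position. A batch that followed strain or treatment could therefore not be told apart from them.

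Fkbp5 lies on chromosome 17 (chr17:28399094-28517527, minus strand, GRCm38, the build also called mm10), as do Hsp90ab1 (chr17:45567775-45573271, minus) and Hspa1b (chr17:34956436-34959238, minus). Fkbp4 is at chr6:128429735-128438677 (minus), Hsp90aa1 at chr12:110690605-110702728 (minus), Ptges3 at chr10:128058954-128077272 (plus) and Stip1 at chr19:7020702-7039967 (minus). Hspa8 is at chr9:40800984-40810087 (plus), Hsph1 at chr5:149614287-149636376 (minus) and Dnajb1 at chr8:83608193-83612653 (plus). All are protein-coding genes, and the spans cover their exons and introns in GENCODE M21.

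The 250 bases before the start site are shown for the member with the largest response and for the 3 members with a match to a heat shock element, the DNA word read by heat shock factors. They come from RefSeq on GRCm38.p6, each on the minus strand, at chr17:28486150-28486399 for Fkbp5, chr6:128438657-128438906 for Fkbp4, chr17:34959239-34959488 for Hspa1b and chr5:149636337-149636586 for Hsph1. Capitals mark a match to GAANNTTC or TTCNNGAA, each 2 units of the element. The RefSeq start of Fkbp5 lies inside the longer GENCODE span.
Fkbp5: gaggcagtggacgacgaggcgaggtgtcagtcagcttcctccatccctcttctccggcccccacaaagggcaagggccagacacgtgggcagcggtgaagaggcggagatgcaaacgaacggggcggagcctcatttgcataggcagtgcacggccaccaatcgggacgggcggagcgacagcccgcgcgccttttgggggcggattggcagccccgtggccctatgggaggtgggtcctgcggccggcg
Fkbp4: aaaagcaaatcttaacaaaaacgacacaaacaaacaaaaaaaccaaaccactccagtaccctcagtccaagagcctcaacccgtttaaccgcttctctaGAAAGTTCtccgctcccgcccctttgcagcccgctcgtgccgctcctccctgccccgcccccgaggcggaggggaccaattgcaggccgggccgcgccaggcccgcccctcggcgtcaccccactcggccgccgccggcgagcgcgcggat
Hspa1b: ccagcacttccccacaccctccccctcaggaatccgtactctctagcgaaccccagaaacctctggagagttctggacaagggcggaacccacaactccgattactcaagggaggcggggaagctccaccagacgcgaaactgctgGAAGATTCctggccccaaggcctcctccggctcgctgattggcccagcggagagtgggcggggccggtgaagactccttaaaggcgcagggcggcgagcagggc
Hsph1: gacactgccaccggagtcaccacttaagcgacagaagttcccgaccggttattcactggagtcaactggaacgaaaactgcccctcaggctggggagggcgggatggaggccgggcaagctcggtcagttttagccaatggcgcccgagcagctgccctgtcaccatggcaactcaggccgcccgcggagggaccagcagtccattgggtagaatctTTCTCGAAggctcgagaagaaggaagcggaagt

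Windows of 300 bases, 250 before and 50 after the start, were held for 7 of the 10 members. GAANNTTC was found in Fkbp4 (first base 151 before the start), Hspa1b (104 before) and Hsph1, and in 9.04% of 27025 genes. TTCNNGAA was found in Hsph1 (33 before the start) and in 9.60% of genes, and either word in 3 of the 7 members and in 17.0% of genes. The longer word of 3 units (TTC, GAA and TTC in turn, with 2 free bases between them), which contains both shorter words, was found in Hsph1 alone among the members and in 0.662% of genes. It starts 37 bases after the first of the listed start sites and is in capitals in the following stretch (chr5:149636288-149636308, minus strand).
Hsph1 3-unit match: gctgcagaTTCTGGAAAGTTC
The steroid receptor element (GNACA and TGTNC with 3 free bases between them) was found in 0 of the 7 windows and in 0.537% of genes. All words were searched on both strands. A match describes the letters only.

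Fkbp5 rose most of the 10 genes in both strains, and further in PRB than in PRA. With oil it stood at 1.75, 2.64, 2.74 and 2.86 FPKM in the 4 PRA libraries and at 4.13, 2.59, 3.83 and 3.73 in the 4 PRB libraries. With P4 it stood at 48.1, 46.9, 42.3 and 37.6 FPKM in PRA and at 143, 136, 178 and 110 in PRB. Every P4 library was above every oil library, and every PRB library with P4 was above every PRA library with P4, while the oil groups overlapped.

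The mean level of Fkbp5 went from 2.50 ± 0.506 FPKM (SD, n = 4) to 43.7 ± 4.79 in PRA, a ratio of means of 17.5, and from 3.57 ± 0.673 to 142 ± 28.0 in PRB, a ratio of 39.7. On the log2(FPKM + 1) scale, which understates changes from such low oil levels, Fkbp5 rose by 3.68 (SE 0.15, adjusted p = 1.50e-10) in PRA and by 4.96 (SE 0.15, adjusted p = 8.20e-12) in PRB in limma, with Benjamini-Hochberg adjustment over all 15408 features. These differences ranked 14th and 11th from the top. By mean level, Fkbp5 moved from rank 13784 to rank 3042 of the 15408 features in PRA and from rank 12972 to rank 593 in PRB.

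**Figure D1:**
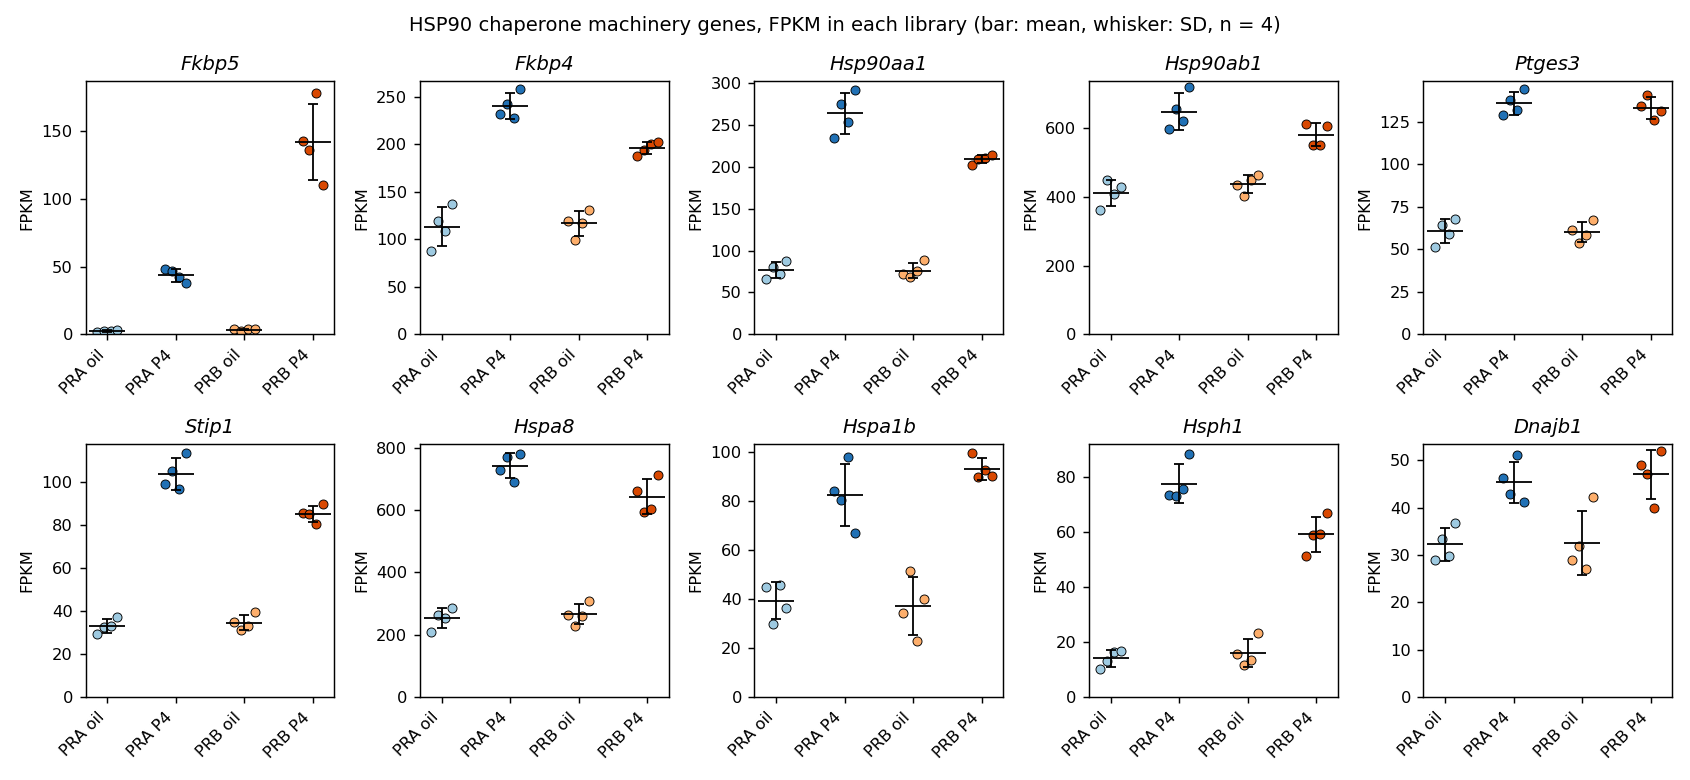
FPKM of each of the 10 genes (linear axes from 0, with a scale of their own) in the 4 groups, 1 point per library, with the mean and SD of 4 libraries. The Fkbp5 points with P4 sit between 37.6 and 48.1 in PRA and between 110 and 178 in PRB, the one panel in which the PRB points with P4 lie wholly above those of PRA.

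The strains were compared next, which asks whether isoform A and isoform B transgenes go with different levels. With oil, Fkbp5 was 0.39 higher in PRB on the log2 scale (95% interval 0.06 to 0.71, adjusted p = 0.786), which did not pass the test. With P4 it was higher in PRB by 1.66 (SE 0.15, adjusted p = 1.44e-05), a ratio of means of 3.24. The difference between the P4 responses, PRB minus PRA, was 1.27 (SE 0.21, 95% interval 0.82 to 1.73, adjusted p = 0.00771), rank 132 of 15408. This difference passed the test in all 22 alternatives that were run, with values from 1.16 to 1.39. The comparison of strains with P4 and the comparison of responses use the same P4 libraries, so they are not separate evidence.

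Pgr, the receptor gene itself, stood at 72.1, 76.4, 73.2 and 73.7 FPKM in PRA with P4 and at 121, 122, 78.5 and 126 in PRB with P4. It was higher in PRB by 0.57 (adjusted p = 0.00575), with no overlap between the groups. With oil it stood at 66.7, 67.3, 56.8 and 68.9 FPKM in PRA and at 87.6, 79.9, 79.4 and 87.3 in PRB, again with no overlap, a difference of 0.36 (SE 0.12) that was not called (adjusted p = 0.588). The PRB library with the lowest Pgr, at 78.5, stood apart from the other 3 of its group and had the highest Fkbp5, at 178. Without this library Fkbp5 was higher in PRB with P4 by 1.54 (adjusted p = 3.09e-05), and the difference between its responses was 1.16 (adjusted p = 0.00783). FPKM of Pgr does not separate the transgene from the endogenous gene, and the part of the Pgr level in the Fkbp5 difference was not tested.

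Of the other immunophilin, Fkbp4, PRA libraries held 87.8, 119, 109 and 137 FPKM with oil and 232, 242, 227 and 258 with P4. PRB libraries held 120, 99.0, 117 and 131 FPKM with oil and 187, 194, 200.1 and 202 with P4. All P4 libraries were above all oil libraries, and the PRB libraries with P4 were all below those of PRA. Fkbp4 rose by 1.09 (SE 0.11, adjusted p = 5.25e-07) in PRA and by 0.75 (SE 0.11, adjusted p = 2.35e-05) in PRB. With P4 the strains differed by -0.29 (PRB minus PRA, 95% interval -0.52 to -0.05, adjusted p = 0.0881), which was not called.

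Within a library, the ratio of Fkbp5 to Fkbp4, which compare per length in FPKM, was 0.0220 ± 0.00223 (SD, n = 4) in PRA with oil and 0.183 ± 0.0265 with P4. In PRB it was 0.0305 ± 0.00384 with oil and 0.725 ± 0.143 with P4. The groups did not overlap in any of the 4 comparisons (P4 against oil in each strain, strain against strain with each treatment). Each gave an exact two-sided permutation p of 0.0286, the smallest that 4 against 4 allows, or 0.0327 adjusted over 8 ratio comparisons. That adjustment leaves out all other features, unlike the one over 15408 features, by which neither gene was called between strains with oil. The Fkbp5 transcript was thus below the Fkbp4 transcript in every library, and closest to it in PRB with P4, where single ratios ran from 0.544 to 0.889.

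**Figure D2:**
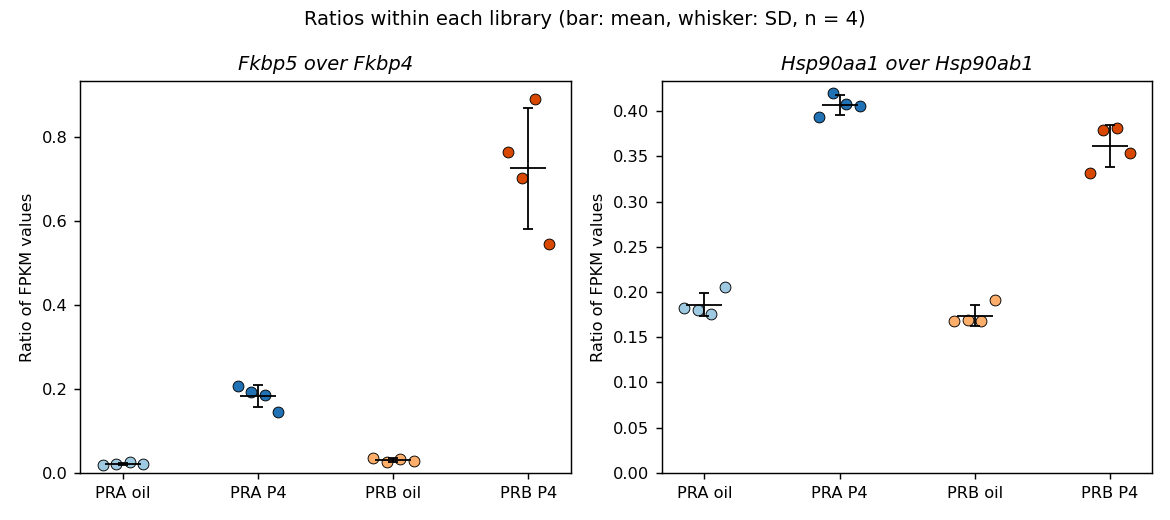
Ratio of FPKM values within each library, Fkbp5 over Fkbp4 on the left and Hsp90aa1 over Hsp90ab1 on the right, with the mean and SD of 4 libraries per group. On the left the PRB libraries with P4 run from 0.544 to 0.889, and on the right the P4 libraries of both strains lie above all oil libraries.

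Hsp90aa1 encodes the inducible cytosolic HSP90, and Hsp90ab1 the constitutive one. Hsp90aa1 stood at 66.0, 80.9, 71.8 and 87.8 FPKM in PRA with oil and at 235, 275, 254 and 291 with P4. In PRB it stood at 72.7, 68.1, 75.3 and 88.5 with oil and at 203, 209, 210.3 and 214 with P4. The oil groups overlapped, and each PRB library with P4 was under each PRA library with P4. Hsp90aa1 rose by 1.77 (SE 0.09, adjusted p = 1.12e-09) in PRA and by 1.45 (SE 0.09, adjusted p = 5.86e-09) in PRB.

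Hsp90ab1 was the more abundant form throughout, with 411 ± 37.2 FPKM in PRA with oil, 648 ± 53.0 with P4, 437 ± 26.1 in PRB with oil and 580.3 ± 33.2 with P4. It rose by 0.65 (SE 0.08, adjusted p = 2.22e-06) and by 0.41 (SE 0.08, adjusted p = 0.00022). The ratio of Hsp90aa1 to Hsp90ab1 went from 0.186 ± 0.0130 to 0.407 ± 0.0109 in PRA and from 0.174 ± 0.0115 to 0.361 ± 0.0235 in PRB, each with exact permutation p = 0.0286 (adjusted 0.0327). With P4 the ratio was lower in PRB, with the same p-values, and with oil the strains gave p = 0.229 in the exact permutation test.

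Ptges3, which encodes the late-acting co-chaperone p23, rose in both strains. It stood at 51.1, 64.4, 59.2 and 67.6 FPKM in PRA with oil and at 129, 138, 132 and 144 with P4. The PRB values were 61.5, 53.8, 58.4 and 67.3 with oil and 134, 141, 126 and 131 with P4. The strains overlapped with both treatments. Ptges3 rose by 1.16 (SE 0.08, adjusted p = 1.46e-08) in PRA and by 1.13 (SE 0.08, adjusted p = 1.73e-08) in PRB, and the difference between the responses was -0.02 (95% interval -0.27 to 0.22). The annotation names a pseudogene of it, Ptges3-ps, and how its reads were counted is not given in the sources used here.

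Stip1, whose product joins HSP70 to HSP90, went from 29.3, 32.6, 33.2 and 37.0 FPKM to 99.0, 105, 96.6 and 113 in PRA. In PRB it went from 34.9, 31.1, 33.0 and 39.4 to 85.4, 85.0, 80.3 and 89.6. The P4 groups of the strains did not overlap. Stip1 rose by 1.62 (SE 0.08, adjusted p = 5.48e-10) in PRA and by 1.28 (SE 0.08, adjusted p = 3.63e-09) in PRB.

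Hspa8 encodes the constitutive HSP70 and had the highest level of the 10 genes with P4, at 729, 771, 692 and 781 FPKM in PRA and 661, 594, 604 and 714 in PRB. With oil it stood at 209, 262, 254 and 287 in PRA and 264, 229, 261 and 309 in PRB. The P4 groups overlapped between strains. It rose by 1.56 (SE 0.10, adjusted p = 6.73e-09) in PRA and by 1.28 (SE 0.10, adjusted p = 4.61e-08) in PRB.

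Hsph1, of the HSP110 family that exchanges nucleotide on HSP70, had the second largest response. PRA libraries held 10.2, 12.95, 16.3 and 16.9 FPKM with oil and 73.4, 73.2, 75.8 and 88.2 with P4. PRB libraries held 15.5, 11.7, 13.4 and 23.5 with oil and 51.4, 59.0, 59.2 and 67.0 with P4. The PRB libraries with P4 were all below those of PRA. Hsph1 rose by 2.40 (SE 0.18, adjusted p = 2.80e-08, rank 74) in PRA and by 1.86 (SE 0.18, adjusted p = 3.80e-07) in PRB. It is also the member with the 3-unit match shown above, but a link between match and response was not tested.

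Hspa1b, the stress-inducible HSP70, varied more between replicates. It stood at 45.1, 30.0, 45.8 and 36.3 FPKM in PRA with oil, at 84.1, 80.2, 97.8 and 67.0 with P4, at 34.3, 51.5, 22.9 and 40.0 in PRB with oil and at 99.5, 89.8, 92.8 and 90.2 with P4. P4 and oil libraries did not overlap within either strain, and the strains overlapped with both treatments. Hspa1b rose by 1.05 (SE 0.20, adjusted p = 0.000216) in PRA and by 1.36 (SE 0.20, adjusted p = 2.10e-05) in PRB.

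Hspa1a, its neighbour 9951 bp away, shares 99.43% of the longest open reading frame and 296 of 300 promoter bases with Hspa1b, so the split of reads between both genes is uncertain. Hspa1a rose by 0.79 (adjusted p = 0.0041) and 1.12 (adjusted p = 0.000266). The summed level of both ran from 50.4 to 77.9 FPKM in PRA with oil, 103 to 162 with P4, 39.4 to 87.4 in PRB with oil and 144 to 159.6 with P4, so the treatments did not overlap in either strain.

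Dnajb1, a J-domain partner of HSP70 and a usual heat shock gene, moved least in PRA. It went from 29.0, 33.4, 29.8 and 36.7 FPKM to 46.3, 43.0, 51.1 and 41.2 in PRA, without overlap. In PRB it went from 28.9, 31.9, 27.1 and 42.2 to 49.1, 47.1, 40.0 and 52.1, where the highest oil library was above the lowest P4 library. It rose by 0.48 (SE 0.12, adjusted p = 0.0030) in PRA and by 0.53 (SE 0.12, adjusted p = 0.00146) in PRB.

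All 10 genes thus rose with P4 in both strains. The share of all tested features that rose was 36.6% in PRA, 36.2% in PRB and 32.0% in both strains. The 10 genes were chosen with earlier results of these data known, so comparisons with all features are a description only. P4 and oil groups did not overlap for 10 of 10 genes in PRA and 9 of 10 in PRB, against 35.0% and 32.6% of all features in that direction. The median difference over the 10 genes was 1.36 in PRA and 1.28 in PRB, beside 0.01 and 0 over all features tested. Together the 10 genes made up 0.178 to 0.223% of total FPKM in PRA with oil and 0.394 to 0.431% with P4, and 0.191 to 0.233% and 0.359 to 0.385% in PRB.

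**Figure D3:**
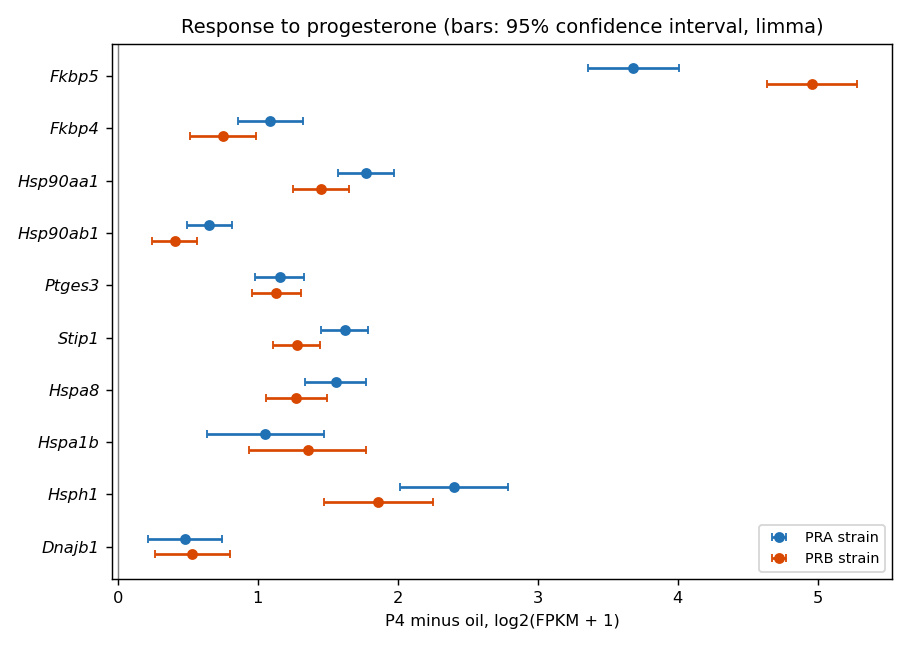
Difference between P4 and oil on the log2(FPKM + 1) scale for each of the 10 genes in each strain, with the 95% interval from limma. All intervals lie above 0, and Fkbp5 has 3.68 in PRA and 4.96 in PRB.

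Between strains with oil, 0 of the 10 genes were called by limma, beside 0.117% of all features. An unadjusted p under 0.05 was found for 1 (Fkbp5), and the share of all features under it was not counted. The differences ran from -0.11 for Hspa1b to 0.39 for Fkbp5, and the groups overlapped for all 10, while 3.39% of all features had no overlap. With P4, 3 of the 10 were called, beside 16% of all features (7.75% higher and 8.29% lower in PRB). Fkbp5 was higher in PRB, while Hsp90aa1 was lower by 0.33 (log2 difference -0.33, SE 0.09, adjusted p = 0.0288) and Stip1 by 0.28 (-0.28, SE 0.08, adjusted p = 0.0276). Groups did not overlap for Fkbp5, higher in PRB, and for Fkbp4, Hsp90aa1, Stip1 and Hsph1, lower in PRB: 5 of 10, beside 20.2% of all features (9.23% higher and 10.9% lower).

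Both lower calls ended when single libraries were left out. Hsp90aa1 was no longer called without PRA with P4 replicate 2 or 4 or PRB with P4 replicate 1 or 2, with adjusted p up to 0.0962 and differences of -0.31, -0.28, -0.31 and -0.33. Stip1 was no longer called without those same libraries or without PRB with P4 replicate 3, with adjusted p up to 0.094 and differences from -0.28 to -0.23. With P4, Hsph1 differed by -0.39 (adjusted p = 0.162), Hspa8 by -0.21 (0.174), Hsp90ab1 by -0.16 (0.178), Ptges3 by -0.03 (0.842), Dnajb1 by 0.05 (0.826) and Hspa1b by 0.19 (0.549), none of them called.

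For the difference between the P4 responses, Fkbp5 was called and the other 9 genes were not, beside 2.28% of all features, or 1.47% with a larger response in PRB. The values for the 9 ran from -0.54 for Hsph1 (95% interval -1.09 to 0.01, adjusted p = 0.312) to 0.30 for Hspa1b (-0.29 to 0.89). Stip1 had -0.34 (-0.58 to -0.11, adjusted p = 0.126), Fkbp4 -0.34 (0.290), Hsp90aa1 -0.32 (0.237), Hspa8 -0.28 (0.348) and Hsp90ab1 -0.25 (0.266). An unadjusted p under 0.05 was found for 5 of the 10 genes. The share of all features under that unadjusted threshold was not counted, so this count has nothing to be set beside. The intervals do not show that the strains respond alike.

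**Figure D4:**
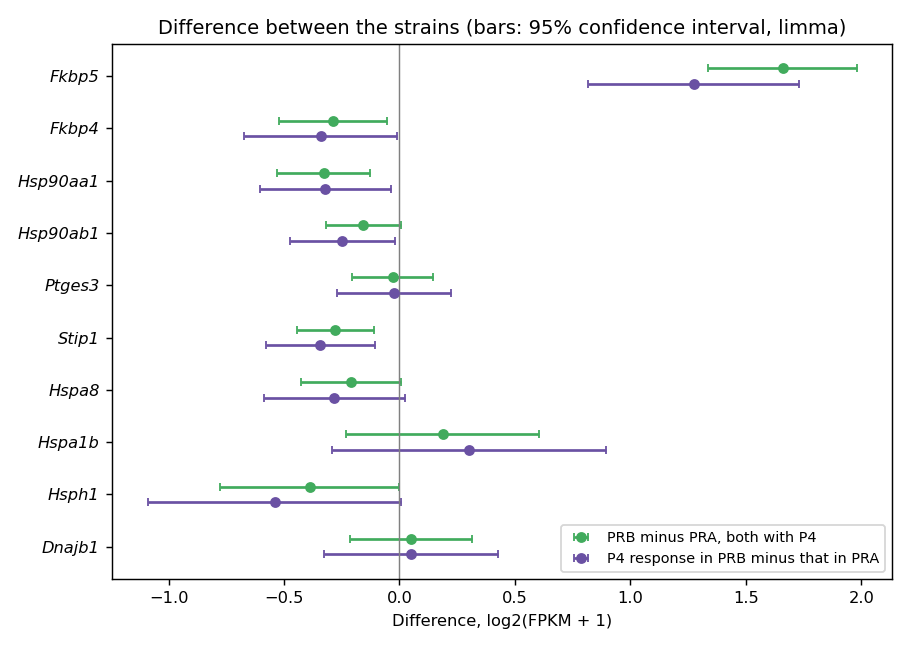
Strain differences with P4 (PRB minus PRA) and differences between the P4 responses (PRB minus PRA), both on the log2(FPKM + 1) scale, for each of the 10 genes with the 95% interval from limma. Fkbp5 lies at 1.66 and 1.27, while Hsp90aa1 lies at -0.33 and Stip1 at -0.28 for the strains with P4.

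Within groups, the highest and the lowest library were counted over the 10 genes, and whether the genes moved together was not tested. The same places were not counted over all features, so they may not be particular to these genes. With P4 the lowest place was spread, at 3, 1, 3 and 3 genes over replicates 1 to 4 of PRA. In PRB with P4 it was at 3, 2, 4 and 1. Replicate 1 of PRA with oil was the lowest of its group for 9 of the 10 genes, all but Hspa1b, and it also had the lowest total FPKM of the group and the highest Fos. Replicate 2 of PRB with oil was the lowest of its group for 8 genes, all but Hspa1b and Dnajb1. It had the highest Fos of that group, at 14.6 FPKM, but not the lowest total FPKM. All 10 genes stayed called with P4 in both strains when either of these libraries was left out. Replicate 4 was the highest of its group for 8 genes in PRA with oil, 7 in PRA with P4, 8 in PRB with oil and 6 in PRB with P4, though it had the highest total FPKM in none of them. Hspa1b was highest in replicate 4 in no group, and neither was Fkbp5 outside PRA with oil. The sum of 3 adipose markers (Adipoq, Plin1, Fabp4) ran from 60.6 to 475.6 FPKM within PRA with oil. Plin1 stood at 45.93, 10.63, 37.61 and 3.952 FPKM in replicates 1 to 4 of that group. It stood at 13.32, 5.848, 8.611 and 3.021 in PRA with P4. The PRB values were 4.462, 13.62, 21.69 and 4.921 with oil and 4.506, 4.062, 2.255 and 9.515 with P4. The part of adipose tissue in the order of the replicates was not tested.

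Likeness over the 16 libraries was measured by Pearson r of log2(FPKM + 1), as a description of points that share groups. Predicted genes, features with clone-type names, microRNAs and small nucleolar RNAs were left out of these orders. The features most like Fkbp5 were Kcnab3 (0.996), Map7d2 (0.995), Il13ra2 (0.995), Gmps (0.995) and Sra1 (0.994). Il13ra2, which encodes a decoy receptor for interleukin 13, went from 0.547 ± 0.457 to 23.9 ± 3.25 FPKM in PRA and from 0.992 ± 0.336 to 73.8 ± 5.45 in PRB. Those most like Hsp90aa1 were Hspd1 (0.999) and Hspe1 (0.999), the mitochondrial chaperonin and its partner, the import receptors Kpnb1 (0.997) and Ipo5 (0.997), and Stip1 (0.997). Hspa1a (0.986), Hspa1l (0.965), Flii (0.964), Dagla (0.957) and Il15ra (0.957) were most like Hspa1b. In the order of likeness to Hsp90aa1, Hspa8 came at 44, Ptges3 at 228, Hsph1 at 258, Fkbp4 at 566, Hsp90ab1 at 1235, Fkbp5 at 2781, Hspa1b at 3477 and Dnajb1 at 3528.

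Other genes of the chaperone network were read from lists by function. Over all tested features 36.6% rose and 33.2% fell in PRA, and 36.2% rose and 32.9% fell in PRB, and the counts of each list stand beside these shares. Of 21 further HSP90 co-chaperones, 13 rose and 5 fell in PRA, and 13 rose and 4 fell in PRB. Ppid, a cyclophilin that binds HSP90, rose by 0.86 and 0.80 (PRA, then PRB), Ahsa1, which speeds the ATPase of HSP90, by 0.85 and 0.68, and Chordc1 by 0.81 and 0.75. Tsc1 fell by 0.70 in PRA. The median over the list was 0.27 and 0.32, beside 1.36 and 1.28 over the 10 genes.

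Of 9 further HSP70 and HSP110 genes, 6 rose in each strain, with 1 falling in PRA and 2 in PRB. The falling count was 2 in PRA without PRA oil replicate 4, PRA P4 replicate 1 or PRB P4 replicate 3, and 1 in PRB without PRB oil replicate 1, 2 or 3 or PRB P4 replicate 3. Hspa4, a relative of Hsph1, rose by 1.32 and 1.15, and Hspa13, an HSP70 relative of microsomes, by 1.02 and 1.44. Of 7 exchange and BAG factors, which release nucleotide from HSP70, 5 rose and 1 fell in PRA, and 6 and 0 in PRB. The falling count in PRB was 0 to 1 when 1 library was left out. Bag3 rose by 1.09 and 1.13 and Hspbp1 by 0.84 and 0.75. Of 11 further J-domain genes, 10 rose in each strain, among them Dnajb4 by 1.17 and 0.95 and Dnajc21 by 0.92 and 1.09.

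Of chaperones outside the HSP90 cycle, all 10 mitochondrial chaperone genes rose in PRA and 9 of 10 in PRB, led by Hspd1 (1.66 and 1.41) and Hspe1 (1.54 and 1.29). Of 13 tested genes of the chaperonin TRiC and its helper prefoldin, 12 rose and 1 fell in each strain, with Cct6a at 1.43 and 1.28. The 6 tested small heat shock genes were split, 3 rising and 3 falling in PRA and 3 rising and 1 falling in PRB: Hspb8 rose by 1.40 and 1.52, while Hspb6 fell by 0.60 in PRA and Cryab by 0.43 in PRB. Without replicate 3 of PRA with P4, 0 of this list fell in PRA, and Hspb6 had -0.52 (adjusted p = 0.0509). In PRB 2 fell without PRB oil replicate 4 and 3 without PRB P4 replicate 1.

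With P4, Hspa4l was lower in PRB by 0.48 (log2 difference -0.48, adjusted p = 0.00634), Hspa13 was higher by 0.43 (adjusted p = 0.0131), and no exchange or BAG factor was called. With only the libraries compared, neither Hspa4l (adjusted p = 0.0572) nor Hspa13 (0.0684) was called. Over 4 tested heat shock factors and regulators the median response was 0.19 in PRA and 0.20 in PRB, beside 1.36 and 1.28 over the 10 genes. Hsf2 rose by 0.76 and 0.43, and Hsf4 fell by 0.49 and 0.63, though in PRA it had -0.29 (adjusted p = 0.0595) under quantile normalization. Hsf1, the main stress-responsive factor, had 0.18 in PRB (adjusted p = 0.0235, and 0.0796, 0.0776 and 0.0808 without PRB oil replicate 3, PRB P4 replicate 2 or PRB P4 replicate 4) and Hsbp1, which binds it, 0.24 and 0.21, but under quantile normalization Hsbp1 had 0.00255 in PRA and -0.0612 in PRB, and Hsf1 -0.0929 in PRB, none of them called. Of 10 other FK506-binding proteins, 7 rose and 2 fell in PRA and 8 rose and 1 fell in PRB, with Fkbp11, of the secretory pathway, at 2.10 and 2.25.

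Of 5 genes for steroid receptors, which HSP90 serves, 3 fell in each strain, beside 33.2% and 32.9% of all features. Nr3c2, the mineralocorticoid receptor, fell by 0.98 and 1.22, Nr3c1, the glucocorticoid receptor, by 0.60 and 0.88, and Esr1, an oestrogen receptor, by 0.35 and 0.80. Pgr rose by 0.39 in PRB (adjusted p = 0.00807), where 1 P4 library was below the oil libraries, and had 0.11 (adjusted p = 0.413) under quantile normalization. In PRA it had 0.19 (adjusted p = 0.171), with every P4 library above every oil library, and the difference between the responses, 0.21, was not called (adjusted p = 0.583). Without PRB P4 replicate 3, 1 of the 5 genes rose in PRA. Esr1 was the only gene on these further lists called for the difference between responses, with -0.45 (adjusted p = 0.0457), and it was not called without the filter (0.0615). The call held in 3 of the 16 fits that left out 1 library (replicate 1 of either P4 group, or replicate 3 of PRB with P4), with adjusted p up to 0.104 in the other 13.

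Immediate early genes, which mark handling and early signalling, were set beside these values because stress genes are among the 10. Their summed level ran from 245 to 496 FPKM in PRA with oil, 334 to 423 with P4, 294 to 381 in PRB with oil and 400 to 533 with P4. Of 9 tested, 2 rose in PRA (5 without replicate 1 of PRA with oil) and 5 in PRB, beside 36.6% and 36.2% of all features. In that oil library Fos stood at 44.6 FPKM, beside 3.18 to 3.84 in the other 3 of its group. Zfp36 rose by 0.72 and 1.52. With P4 Zfp36 was higher in PRB by 0.88 (adjusted p = 0.00176). The part of these genes in the rise of Hspa1b and Dnajb1 was not tested.

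**Figure D5:**
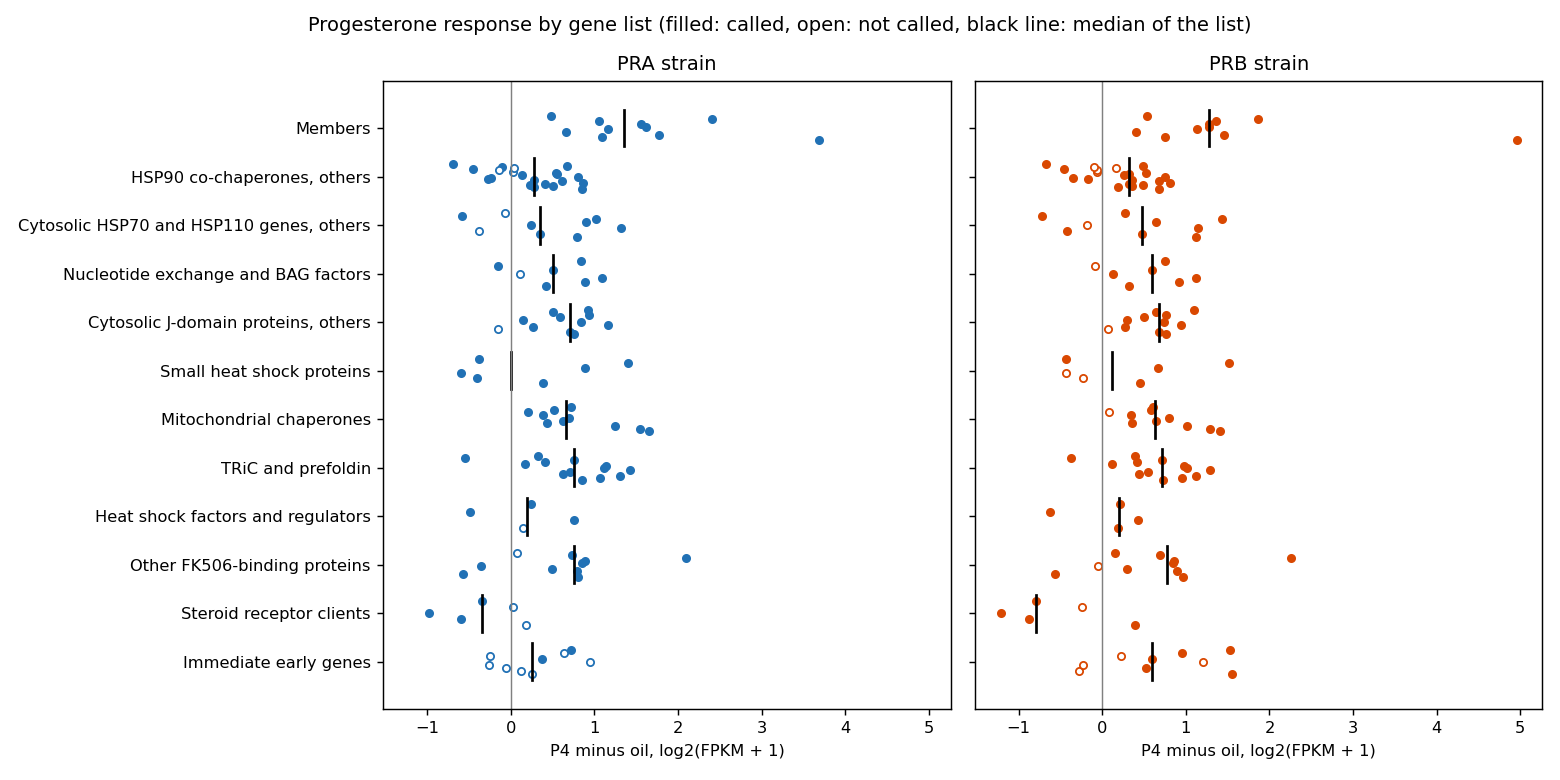
Differences between P4 and oil (log2(FPKM + 1) scale) in each strain for every tested gene of the chaperone, steroid receptor and immediate early gene lists. There is 1 point per gene (filled where called), with a black line at the median of each list and the 10 genes in the top row (Members). All points of the 10 genes and of the mitochondrial list lie above 0, and each other list holds genes on both sides in at least 1 strain.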

How the data were processed

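RNA-seq was carried out on 16 whole-uterus libraries. The authors deposited FPKM values per feature and library; per the submitters' processing notes, TopHat2 2.0.4, Cufflinks 2.0.2, Cuffdiff and mm10 were used, without role or order. The sources used here do not give the annotation, strandedness or scaling. FPKM are not counts, so log2(FPKM + 1) was tested with limma 3.58.1 (R 4.3.3): features averaging 1 FPKM or more, 1 mean for each of 4 groups, an intensity trend, two-sided tests and Benjamini-Hochberg adjustment over 15408 features. Called, rose and fell mean an adjusted p under 0.05. There were 5 contrasts: the P4 response of each strain, the strain difference under each treatment, and the difference of both responses. Fold ratios are of mean FPKM. The procedure was tested on simulated data.

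Depth was implied from the spacing of low values of features with 1 transcript over 800 bases: 75.7 to 83.8% of those of under 6 fragments lay within 0.15 of a whole number. The replicate numbers share no stated litter, day or animal across groups, and were not used as a block. The members and lists were chosen with earlier results of these data known. Genes named are the 10 members, Pgr, up to 4 called genes of each list in each contrast, and genes found by likeness. The latter are the 5 features most like each of Fkbp5, Hsp90aa1 and Hspa1b, without predicted genes, clone-type names, microRNAs and small nucleolar RNAs. Cell type markers are named apart. Alternatives were another pseudocount (0.1), no filter, quantile normalization, median-ratio scaling, only the libraries compared, robust moderation, a replicate block and leaving out each library.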

Additional observations from a re-analysis of the deposited data

Results flagged for a closer look

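Fkbp5 is listed here because its P4 response differed between the strains by a test of that difference: 1.27 on the log2(FPKM + 1) scale, PRB minus PRA (adjusted p = 0.00771, limma), with all 4 PRB libraries with P4 above all 4 PRA libraries with P4. For Esr1 the same test gave -0.45 (adjusted p = 0.0457), with the limits given above.

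A library far from the other 3 of its group was looked for with Dixon's test in 328 groups of values (82 genes). Chance gives about 1 in 20 such groups, and 9 were found, 0 of them among the 40 groups of the 10 chaperone genes. In replicate 3 of PRB with P4, Pgr stood at 78.5 FPKM beside 121 to 126 in the others, and Ppp5c at 42.4 beside 45.8 to 46.4. In replicate 1 of PRA with oil, Fos stood at 44.6 beside 3.18 to 3.84 and Dusp1 at 32.04 beside 11.1 to 12.4. In replicate 4 of PRB with oil, Ppp5c stood at 29.96 beside 26.97 to 27.4 and Cryab at 37.1 beside 42.4 to 42.9, and in replicate 2 Cct5 stood at 95.4 beside 102.6 to 103.6. Dnajc21 stood at 18.9 in replicate 3 of PRA with P4 beside 20.8 to 21.1, and Hspd1 at 175 in replicate 4 of PRB with P4 beside 159.5 to 159.6.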

How the results depend on the processing

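The P4 responses of all 10 genes kept their direction and stayed called in both strains under all 23 alternatives, as did the higher Fkbp5 of PRB with P4. Their sizes moved. Over the alternatives Hsp90ab1 ran from 0.36 to 0.70 in PRA and from 0.17 to 0.44 in PRB, and Fkbp4 from 0.46 to 0.81 in PRB. When only single libraries were left out, the lowest of these values were 0.59, 0.37 and 0.67. Of 50 differences (10 genes, 5 contrasts), 19 had a 95% interval that held 0; 10 of these changed sign under at least 1 alternative and 0 were called, and 0 of the others changed sign.

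Features called between strains with oil numbered 18, but 33 with no filter, 6 with only the libraries compared, and 8 to 30 when 1 library was left out. With P4 they numbered 2471, but 1640 with only the libraries compared and 1416 to 2632 when 1 library was left out. For the difference of responses they numbered 352, and 155 to 508 when 1 library was left out. Members called with P4 numbered 3, but 5 with only the libraries compared, where Fkbp4 (adjusted p = 0.0151) and Hsph1 (0.0353) joined, and 1 to 4 when 1 library was left out. Leaving out 1 library moved Hsp90aa1 between -0.38 and -0.28 and Stip1 between -0.31 and -0.23. Under quantile normalization Hsbp1 had -0.0612 and Hsf1 -0.0929 for P4 against oil in PRB. The cause was not tested.

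With the replicate block, members called for the difference of responses numbered 2 in place of 1, as Stip1 had adjusted p = 0.0382; the block changed no other call among the 10 genes, and Esr1 was not called for that contrast (0.0644). Of 24 pairs of samples with the same number, 6 had a correlation of deviations over 0.1 (median 0.03), and of 72 other pairs 9 did. Since not every same-number pair was over 0.1, the numbers were not taken as pairs. As a hint from the data, all 6 pairs of number 4 were positive (0.0413 to 0.312), but only 2 of 16 libraries correlated best with their own number in every other group. Fragment counts were not used here, so no limit from depth is given beyond the replicate spread.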
